A study of Mus musculus with 7 samples.

Results

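Type I interferon-stimulated genes were followed in tumor-associated macrophages with and without Dicer1. The group is a set of 34 mouse genes chosen by name for their known induction by type I interferons. No value of these libraries enters the rule, but the list was drawn up with earlier results of these data known. Of the 34 genes, 33 had a row among the 24084 genes listed and all 33 passed the filter on low counts. Ifi44l has no row in the tables analysed here. RNA was measured in 7 libraries of cells sorted as F4/80+ from tumors raised by injecting Lewis lung carcinoma (LLC) cells, a line of mouse lung cancer, subcutaneously. LysM-Cre;Dicer–/– mice, whose floxed Dicer1 copies are both deleted by a Cre recombinase driven from the lysozyme M locus, gave 3 libraries. LysM-Cre;Dicer+/+ mice gave the 4 control libraries. Both genotypes carried LysM-Cre on both chromosomes and the same tumor, and no age or further treatment is given in the labels. The lysozyme M locus is active in monocytes, macrophages and neutrophils, so the deletion is not limited to the sorted cells. Whether the libraries are separate animals is not stated in the labels. A p-value therefore rests on the spread of these 7 libraries, part of which may be technical.

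Type I interferons are secreted when a cell senses viral or misplaced nucleic acid. They bind the receptor chains Ifnar1 and Ifnar2, whose kinases Jak1 and Tyk2 activate transcription factors in the cytoplasm. These move to the nucleus, bind the interferon-stimulated response element (ISRE) in promoters and switch on genes that block viruses and adjust the pathway itself. Interferon-gamma acts through another receptor and the gamma-activated sequence (GAS) in promoters, and many genes answer to both. In macrophages of tumors both kinds of interferon are known to act, and interferon-stimulated genes are often read as a trace of that exposure.

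Promoters of the group were searched for both elements in RefSeq windows of 300 bases (250 before and 50 after the annotated start, GRCm38.p6). A window was given for 23 of the 34 genes. The core of the ISRE, GAAA, any 2 bases and GAAA on either strand, occurred in 14 of the 23 genes (60.9%) and in 1079 of all 27025 genes with a window (3.99%). The GAS, TTC, any 3 bases and GAA, a palindrome that reads the same on both strands, occurred in 4 of the 23 genes (17.4%) and in 9.55% of all genes. Of the 4 GAS matches, 1 overlapped an ISRE match, in Bst2. In 7 genes a window held more than 1 ISRE match. The windows of Cmpk2, Ifi44, Ifi44l, Ifi47, Ifit2, Isg20, Oasl1, Oasl2 and Xaf1 had no ISRE match. A match is a run of letters, not a shown site of binding.

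The 200 bases before the start are given for 3 IFIT genes, which share a pair of matches, for Isg15 and the Oas1 pair, where matches overlap, and for Ifi47, which has none and which had the clearest separation between the groups. Capitals mark the ISRE matches. Sequences read 5′ to 3′ on the strand of the gene.
Ifit1 (chr19:34640689-34640888, plus strand): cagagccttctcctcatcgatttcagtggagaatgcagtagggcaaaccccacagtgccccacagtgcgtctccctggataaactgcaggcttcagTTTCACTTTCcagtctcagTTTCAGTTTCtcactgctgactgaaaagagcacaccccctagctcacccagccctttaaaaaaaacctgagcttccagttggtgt
Ifit3 (chr19:34583329-34583528, plus strand): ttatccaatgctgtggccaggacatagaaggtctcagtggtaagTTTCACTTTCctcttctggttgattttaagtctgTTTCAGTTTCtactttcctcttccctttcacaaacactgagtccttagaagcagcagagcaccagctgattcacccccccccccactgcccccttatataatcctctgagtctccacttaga
Ifit3b (chr19:34607757-34607956, plus strand): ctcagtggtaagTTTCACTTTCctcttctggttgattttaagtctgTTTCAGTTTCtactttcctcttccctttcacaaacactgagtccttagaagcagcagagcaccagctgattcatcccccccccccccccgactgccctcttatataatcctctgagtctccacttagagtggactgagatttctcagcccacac
Isg15 (chr4:156200819-156201018, minus strand): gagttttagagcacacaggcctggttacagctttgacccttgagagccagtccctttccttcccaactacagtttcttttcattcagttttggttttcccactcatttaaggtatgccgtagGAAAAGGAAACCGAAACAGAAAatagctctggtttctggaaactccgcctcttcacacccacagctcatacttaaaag
Oas1a (chr5:120907526-120907725, minus strand): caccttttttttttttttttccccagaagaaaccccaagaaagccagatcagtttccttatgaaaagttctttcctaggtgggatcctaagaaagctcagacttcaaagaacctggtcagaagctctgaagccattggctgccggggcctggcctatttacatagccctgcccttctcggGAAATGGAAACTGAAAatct
Oas1g (chr5:120887614-120887813, minus strand): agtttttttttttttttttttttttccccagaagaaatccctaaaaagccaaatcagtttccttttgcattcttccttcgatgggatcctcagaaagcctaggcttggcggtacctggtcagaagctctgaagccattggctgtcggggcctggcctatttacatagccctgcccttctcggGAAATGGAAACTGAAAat
Ifi47 (chr11:49076387-49076586, plus strand): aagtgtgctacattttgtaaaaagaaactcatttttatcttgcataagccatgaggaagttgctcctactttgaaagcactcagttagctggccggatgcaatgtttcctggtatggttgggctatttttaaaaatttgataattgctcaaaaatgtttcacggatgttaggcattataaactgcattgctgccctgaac
Ifit1, Ifit3 and Ifit3b each held the same 2 matches on the opposite strand, TTTCACTTTC and TTTCAGTTTC. Their first bases were 19 bases apart in Ifit1 and 34 in Ifit3 and Ifit3b. In Isg15 3 matches followed each other at steps of 6 bases, and Oas1a and Oas1g shared a pair at the same step, close to the start.

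**Figure D1:**
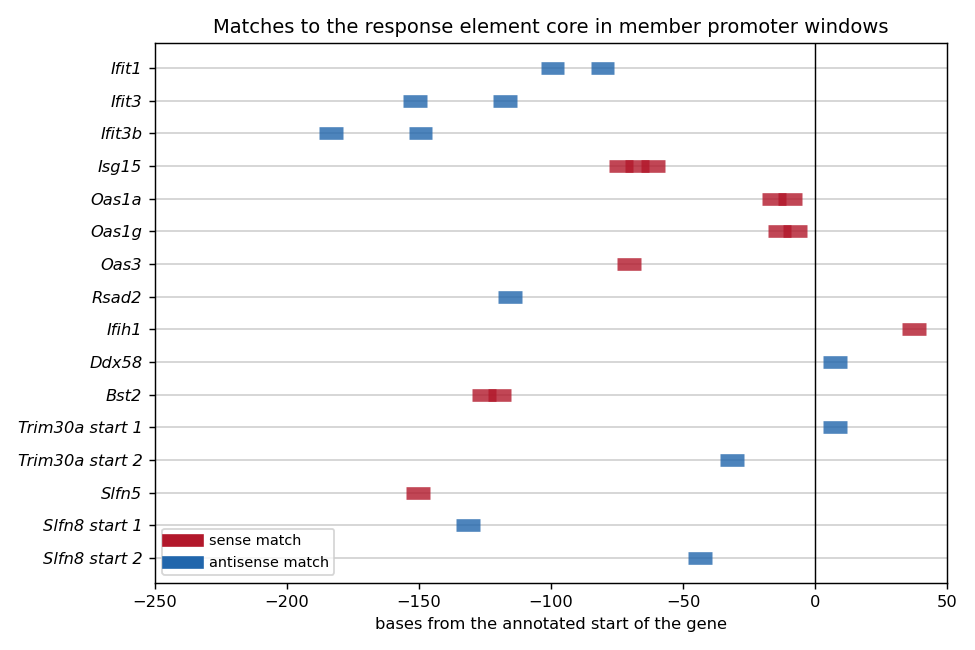
Position of each ISRE core match in the member promoter windows that hold one, in bases from the annotated start (vertical line). Red bars are matches on the strand of the gene and blue bars matches on the opposite strand. The first base of a match lies between -188 and 33.

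Depth was 42.97 to 51.2 M uniquely placed reads per library. Dicer1 itself, the ribonuclease that finishes microRNA processing, was at 7.85, 6.86 and 7.86 counts-per-million (CPM, scaled by edgeR's TMM factors throughout) with the deletion and 15.7, 15.8, 18.6 and 17.1 CPM in the 4 controls. All 3 Dicer1-deleted libraries lay below all controls (log2 fold change -1.16 ± 0.23, SE; edgeR adjusted p = 0.150, DESeq2 adjusted p = 1.33e-04). Only part of the gene is removed, so remaining reads can still be counted. Adgre1, which encodes F4/80, ranged from 233 to 1072 CPM in Dicer1-deleted and from 418 to 798 CPM in control libraries, and Csf1r from 494 to 789 and from 553 to 809 CPM. Over the 11 macrophage markers mean log2 CPM was 9.12 to 9.37 in Dicer1-deleted and 9.14 to 9.55 in control libraries, with 7 markers above 0. Lyz2, the lysozyme M gene that drives Cre, was lower in every Dicer1-deleted library, at 53.0, 67.2 and 50.7 CPM against 134, 212, 107 and 103 CPM (DESeq2 adjusted p = 0.0175, edgeR adjusted p = 0.235). Cd14 was also lower in every one, without passing in edgeR or DESeq2. Dicer1-deleted replicate 2 stood apart from the other libraries. It held the highest value of 26.3% and the lowest of 30.2% of all genes tested, and its median correlation with the other libraries was 0.916, against 0.934 to 0.951 for the other 6. The titles carry an L code (L4 or L5) whose meaning is not given.

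No member of the group rose or fell in Dicer1-deleted macrophages by edgeR's quasi-likelihood test with Benjamini-Hochberg adjustment over 16226 genes. That test called 0.0247% of all genes. DESeq2, which called 2.19% of the genes it adjusted, also called 0 members. At an unadjusted p under 0.05 edgeR found 2 of 33 members (6.06%), Zbp1 and Ifi47, below the 8.01% of all genes, and DESeq2 found 3, these and Rtp4, against 7.81% of all genes. That relation turned with the fit. With the L code as covariate edgeR found 5 of 33 members, a larger share than the 6.71% of all genes. With limma-voom and quality weights 6 of 33 were found, also a larger share than the 14.2% of all genes. Of the 33 members, 19 had a positive log2 fold change, Dicer1-deleted minus control, and their median was 0.17. The median was 0.47 with the L code as covariate (26 above 0), 0.36 in limma-voom with quality weights (24 above 0) and 0.049 without TMM factors (18 above 0). Over all genes 8529 of 16226 (52.6%) were positive in the main fit, with a median of 0.03. The share of all genes above 0 was 50.7% with the L code as covariate, 49.9% with quality weights and 47.1% without TMM factors. In 32 members the log2 fold change was smaller than 1 in either direction. Only Ifi47 was higher in every Dicer1-deleted than in every control library (3.03% of members, against 3.86% of all genes), and 0 members were lower in that way (5.44% of all genes). With fewer libraries groups separate more often. Without Dicer1-deleted replicate 2 the members without overlap in either direction numbered 6 of 33, against 21.2% of all genes, and those at an unadjusted p under 0.05 numbered 4, against 9.42%. Without Dicer1-deleted replicate 3 or control replicate 1 the members without overlap numbered 3, against 15.5% and 11.7% of all genes.

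The spread among controls was wide in this group of genes, and about as wide in the guanylate-binding proteins described below. Control replicate 3 held the highest value of 16 members and control replicate 2 the lowest of 22. For 12 members both were true, among them Isg15, Mx1, Mx2, Rsad2 and Usp18, and 30 of 33 members were higher in control replicate 3 than in control replicate 2. The median ratio of the highest to the lowest control was 3.34 over members and 1.72 over the 10317 genes with a mean of at least 5 CPM, which include all 33 members. The SD of log2 CPM among controls had a median of 0.79 over members and 0.36 over those genes. Among Dicer1-deleted libraries the same medians were 0.61 and 0.49. Over 8 guanylate-binding proteins the median control ratio was 3.54 and the median control SD 0.79. Over 18 interferon-gamma-preferring genes these were 2.81 and 0.67, and over 9 immunity-related GTPases 1.74 and 0.34. In 13 of 33 members the control range held every Dicer1-deleted value, against 15.8% of all genes.

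The mean log2 CPM over the 33 members put one number on each library. It was 5.79, 5.22 and 5.43 in the Dicer1-deleted libraries and 5.18, 4.58, 6.04 and 5.45 in the controls. The highest and the lowest of the 7 values were both controls, and the Dicer1-deleted values lay between them. The group means were 5.48 ± 0.29 (SD, n = 3) and 5.31 ± 0.61 (SD, n = 4), a difference of 0.17, smaller than the SD of either group. Within the libraries coded L4 (2 Dicer1-deleted, 1 control) the difference was 0.74, and within L5 (1 Dicer1-deleted, 3 controls) it was 0.24. In each code 1 genotype had a single library, which for L4 was control replicate 2. Without control replicate 3 the median log2 fold change of the members was 0.48, with 28 of 33 above 0. Without Dicer1-deleted replicate 1 it was -0.0042, with 16 above 0, and without control replicate 2 it was 0.0062, with 17 above 0. The median also stood at 0.04 without control replicate 1, 0.11 without Dicer1-deleted replicate 3 and 0.10 without control replicate 4.

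**Figure D2:**
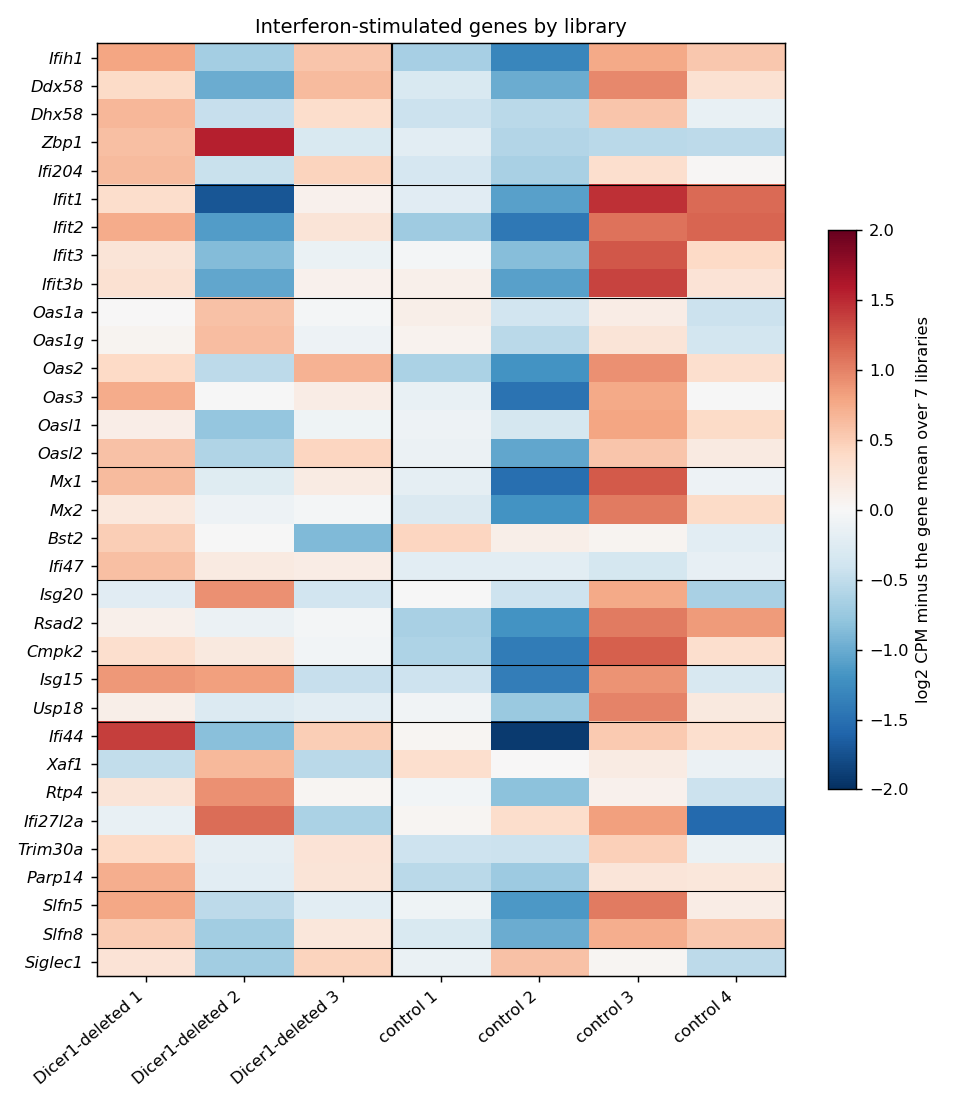
Each row is 1 of the 33 listed members and each column 1 library, and colour gives log2 CPM minus that gene's mean over the 7 libraries. Horizontal lines part the role groups and the vertical line the genotypes. Control replicate 3 is above the gene mean for 31 members and control replicate 2 for 4.

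Sensors of foreign nucleic acid come first in the pathway. Zbp1, a sensor of Z-form nucleic acid that can start necroptosis, was at 88.5, 172 and 47.3 CPM in Dicer1-deleted libraries and at 50.7, 39.1, 40.1 and 40.8 CPM in controls. Dicer1-deleted replicates 1 and 2 lay above all controls, but replicate 3 fell below control replicate 1, so the groups overlapped. Its log2 fold change, 1.26 ± 0.39 (SE), was the largest of the group (edgeR unadjusted p = 0.0097, adjusted p = 0.353, DESeq2 adjusted p = 0.0961), and it was 0.66 without Dicer1-deleted replicate 2. Ifi204, a DNA-binding protein of the interferon-inducible p200 family, was at 268, 126 and 234 CPM against 137, 110.1, 217 and 174 CPM. Dicer1-deleted replicate 2 lay below 3 of the 4 controls and replicates 1 and 3 above all 4 (log2 fold change 0.39 ± 0.35, SE). Multiply placed reads gave 8.40% of the expected count of Ifi204, which adds shares of such reads to the unique ones. The 3 helicases that sense viral RNA in the cytoplasm, Ifih1 (MDA5), Ddx58 (RIG-I) and Dhx58 (LGP2), had log2 fold changes of 0.28, -0.01 and 0.33. Of the 5 sensors 4 were above 0, with a median of 0.33.

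The IFIT family, proteins that bind viral RNA and block its translation, had all 4 members below 0, with a median of -0.54, and none passed. Ifit1, which binds RNA with an unmethylated cap, was at 65.6, 15.6 and 54.6 CPM in Dicer1-deleted libraries and at 43.8, 24.1, 142 and 112 CPM in controls. The low Dicer1-deleted library was replicate 2, and the controls fell into a lower pair (1 and 2) and a higher pair (3 and 4), on both sides of the other 2 Dicer1-deleted values. The log2 fold change was -0.83 ± 0.65 (SE, edgeR adjusted p = 0.947) and -0.06 with the L code as covariate. Ifit2, an IFIT protein known to restrict viruses of the nervous system, was at 142, 39.1 and 101 CPM against 51.4, 31.4, 180 and 189 CPM. The same 2 controls were high and the same 2 low, and all Dicer1-deleted values lay inside the control range (log2 fold change -0.26 ± 0.66, SE). Ifit3 and Ifit3b, close copies next to each other on chromosome 19, had log2 fold changes of -0.56 and -0.52. Multiply placed reads gave 3.76% and 3.77% of their expected counts. Direction turned with the fit in Ifit2 and Ifit3b. They were at 0.56 and 0.14 with the L code as covariate, and at 0.05 and 0.02 without control replicate 3. Ifit1 and Ifit3 stayed below 0 in every fit, Ifit3 at -0.015 with the L code as covariate.

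Enzymes of the OAS family make oligoadenylates that activate RNase L, which degrades RNA. Of its 6 members 5 were above 0, with a median of 0.28. Oas1a, an enzyme of the family and the most abundant, was at 128, 190.2 and 124 CPM in Dicer1-deleted libraries and at 137, 97.2, 140.0 and 94.5 CPM in controls. Only Dicer1-deleted replicate 2 lay above all controls, and the groups overlapped (log2 fold change 0.33 ± 0.28, SE). Oas1g, its neighbour with a like promoter, was at 0.33, and multiply placed reads gave 10.99% and 11.1% of the expected counts of these genes. Oas1a and Oas1g were highest in Dicer1-deleted replicate 2, the library with the lowest Ifit1, Ifit3 and Oasl1. Oasl1, known as a brake on the translation of Irf7, was at 31.5, 16.7 and 27.1 CPM against 26.5, 22.5, 49.2 and 37.3 CPM. It was the only member of the family below 0 (-0.43 ± 0.35, SE), with controls 3 and 4 above all Dicer1-deleted libraries and controls 1 and 2 among them. Oas2, Oas3 and Oasl2 were at 0.20, 0.35 and 0.22.

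Among restriction factors, Ifi47 was the one member of the 33 whose groups did not overlap. It encodes a GTPase of the immunity-related (IRG) family, which attacks vacuoles that hold parasites, and responds strongly to interferon-gamma. Its level was 282, 212 and 206 CPM in Dicer1-deleted libraries and 160.4, 161, 145 and 167 CPM in controls. The 4 controls lay close together, and control replicate 3, the highest library for 16 other members, was the lowest for this gene. The log2 fold change was 0.56 ± 0.24 (SE, edgeR unadjusted p = 0.044, adjusted p = 0.593, DESeq2 adjusted p = 0.236). Its exons overlap Olfr56 on the same strand and Gm12188 on the other, and the library kit keeps no strand. Mx1 and Mx2, dynamin-like GTPases that trap viral particles, were at 0.06 and -0.18, with control ratios of highest to lowest of 6.73 and 4.79. Bst2 (tetherin), which holds budding virus at the cell surface, was at -0.14.

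**Figure D3:**
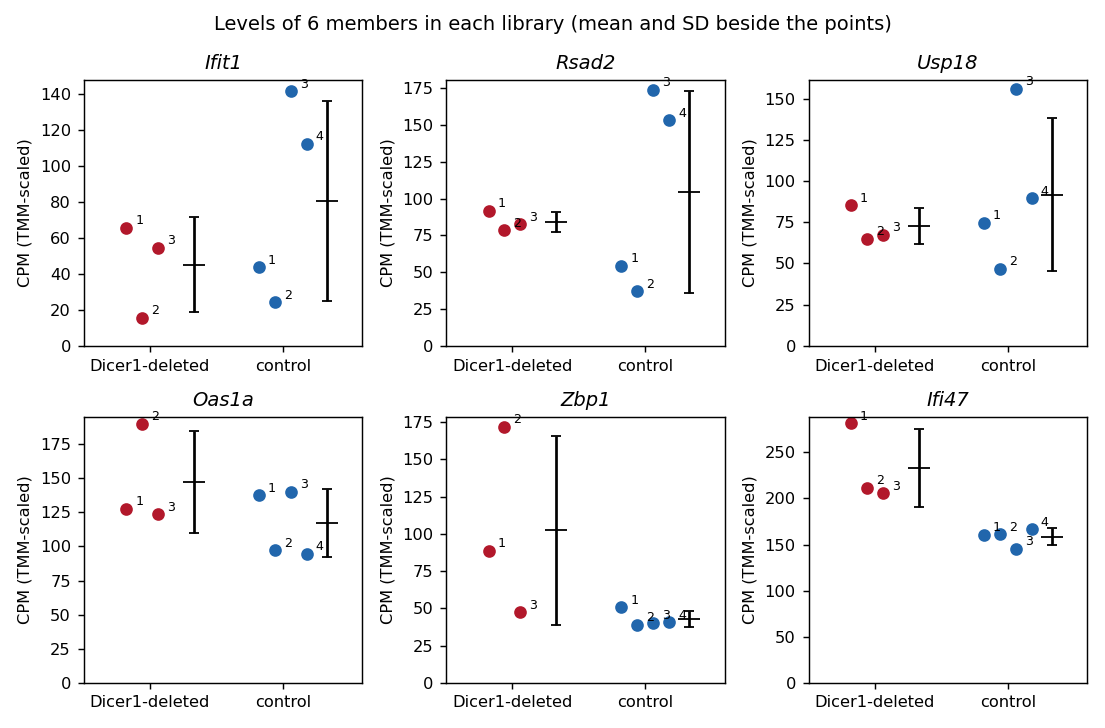
CPM of 6 members in each library, with the replicate number beside each point and the mean and SD of each group at its side. Ifit1, Rsad2 and Usp18 have their highest values in control replicate 3, Oas1a and Zbp1 in Dicer1-deleted replicate 2, and Ifi47 separates the groups at 167 against 206 CPM.

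Enzymes that act on nucleotides and RNA had a median of -0.03, with 1 of 3 above 0. Rsad2 (viperin) turns CTP into a chain terminator of viral polymerases. It was at 91.5, 78.5 and 82.6 CPM in Dicer1-deleted libraries and at 54.3, 36.9, 174 and 153 CPM in controls. The Dicer1-deleted values were close together, with 2 controls below all of them and 2 above (log2 fold change -0.31 ± 0.51, SE). Cmpk2, a nucleotide kinase next to Rsad2 on chromosome 12, was at -0.03, and Isg20, an RNA exonuclease, at 0.19. Rsad2 and Cmpk2 were both highest in control replicate 3 and lowest in control replicate 2.

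Isg15, a ubiquitin-like protein attached to other proteins, and Usp18, the protease that removes it and dampens Ifnar2 signalling, make up the ISG15 system. Isg15 was at 41.0, 39.5 and 16.3 CPM in Dicer1-deleted libraries and at 16.8, 8.53, 41.9 and 17.9 CPM in controls. Dicer1-deleted replicates 1 and 2 were close to the high control replicate 3, and the third Dicer1-deleted library fell among the other controls (log2 fold change 0.60 ± 0.52, SE, edgeR adjusted p = 0.966). Without control replicate 3 it was 1.17, and it did not pass. Usp18 was at 85.1, 64.9 and 67.4 CPM against 74.8, 46.7, 156 and 89.4 CPM. All Dicer1-deleted values lay inside the control range (log2 fold change -0.34 ± 0.39, SE). Usp18 overlaps Gm44148 on the opposite strand.

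Regulators and other induced genes had 5 of 6 listed members above 0, with a median of 0.35. Rtp4, a chaperone of receptor traffic that also damps interferon responses, was at 196, 309 and 169 CPM in Dicer1-deleted libraries and at 159, 93.4, 174 and 122 CPM in controls. Only control replicate 3 reached above the lowest Dicer1-deleted value, and the log2 fold change was 0.71 ± 0.32 (SE, edgeR unadjusted p = 0.0518, adjusted p = 0.634). Exons of Rtp4 overlap Gm45338 on the same strand. Ifi44, an antiviral protein at low level, was at 0.62 ± 0.61 (SE), Parp14, an ADP-ribosyltransferase, at 0.44 and Trim30a, a damper of Toll-like receptor signalling, at 0.26. Xaf1, a pro-apoptotic binding partner of XIAP, was at -0.12. Ifi27l2a was at 0.17, but multiply placed reads gave 69.2% of its expected count, and it lies at -1.246 Mb from Dicer1 on chromosome 12.

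Slfn5 and Slfn8, nucleic acid-binding Schlafen proteins, were at -0.07 and -0.04. Slfn5 was at 46.2, 18.8 and 23.2 CPM in Dicer1-deleted libraries and at 25.5, 12.1, 55.7 and 30.04 CPM in controls. Slfn8 was at 61.3, 26.7 and 50.7 CPM against 35.0, 21.7, 71.2 and 62.6 CPM. In both genes the control range held every Dicer1-deleted value. Siglec1 (CD169), a sialic acid-binding lectin of macrophages, was at 28.0, 14.3 and 31.5 CPM against 20.96, 34.8, 23.8 and 16.04 CPM. Unlike most of the group it was highest in control replicate 2, and its log2 fold change was 0.04 ± 0.36 (SE).

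**Figure D4:**
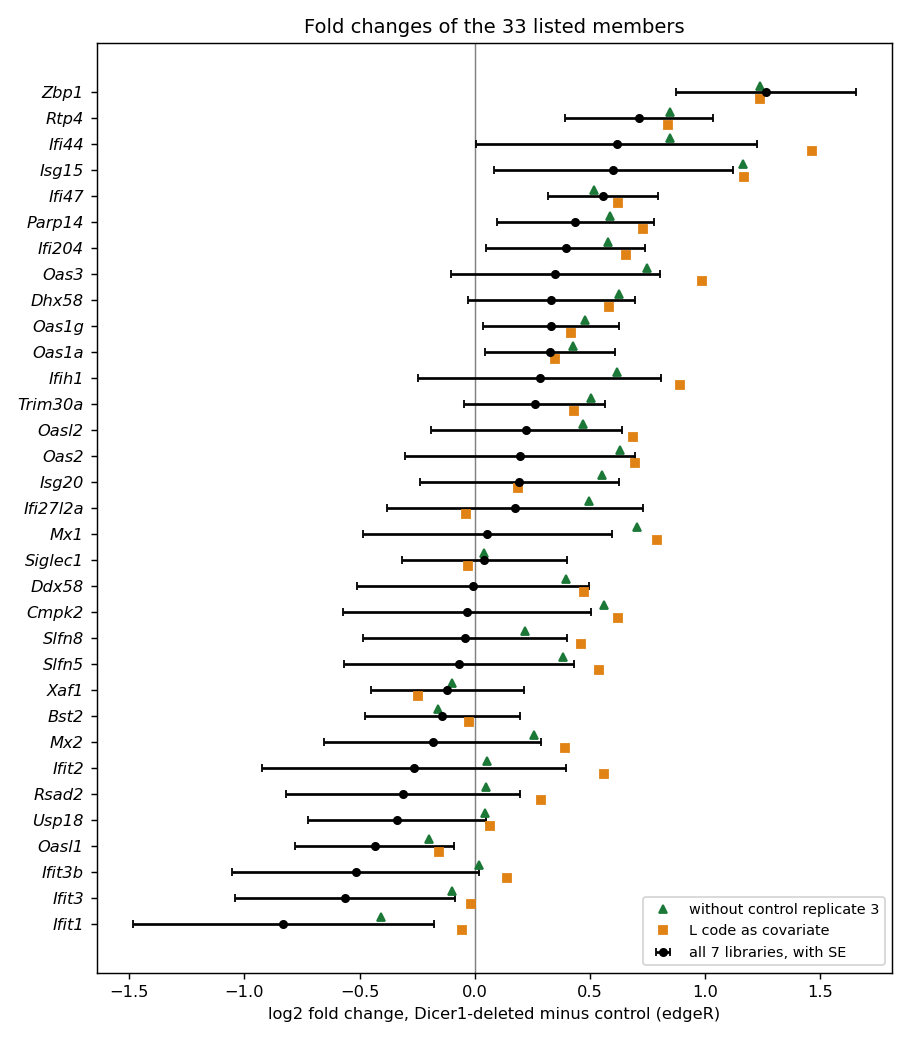
Log2 fold change, Dicer1-deleted minus control, of the 33 listed members by edgeR, ordered by size. Black points with bars are values from all 7 libraries with their SE, green triangles values without control replicate 3 and orange squares values with the L code as covariate. The black values run from -0.83 (Ifit1) to 1.26 (Zbp1), and 28 triangles and 26 squares lie above 0, against 19 black points.

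Levels per kilobase of exon ordered the group in another way. Rtp4 (81.9 CPM per kb over the 7 libraries), Ifi47 (77.0), Oas1a (69.0), Bst2 (65.7) and Ifi27l2a (63.9) came first, and Ifi44 (1.17), Mx2 (1.86) and Cmpk2 (1.94) last. The ranges of the libraries overlapped between neighbours in the leading 5. These levels count uniquely placed reads only. Multiply placed reads gave 69.2% of the expected count of Ifi27l2a and 10.99% of that of Oas1a. The order of the leading 5 could therefore differ with expected counts. Rtp4 and Ifi47 were thus both among the highest in level and among the 5 largest positive fold changes.

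Calls in the pathway above the group stand beside 0.0247% of all genes called by edgeR and 2.19% of those adjusted by DESeq2. Of 18 type I interferon genes 6 had a row and Ifnb1, interferon-beta, alone passed the filter. It was at 0.0415, 1.78 and 0.213 CPM in Dicer1-deleted libraries and at 0.126, 0.987, 0.365 and 2.46 CPM in controls, a trace level in which the groups overlapped. Control replicate 3, the highest library for the members, was not the highest for Ifnb1. The 4 receptor and kinase genes were all above 0 with a median of 0.42 and none called. Jak1, their most abundant, was at 153, 186 and 188 CPM against 125, 133, 135 and 153 CPM, with Dicer1-deleted replicate 1 just under the highest control. Of 9 signalling transcription factors 8 were above 0 (median 0.28), and DESeq2 called 1. Irf8, a factor of macrophage and dendritic cell identity, rose from 33.7 ± 7.61 to 81.6 ± 26.7 CPM (SD, n = 4 and 3, DESeq2 adjusted p = 0.0131, edgeR adjusted p = 0.207).

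Sensors and adaptors upstream of interferon had 12 of 14 genes above 0, with a median of 0.20. DESeq2 called Tlr9, the endosomal sensor of CpG DNA, at 6.64, 4.37 and 8.32 CPM against 1.30, 1.75, 1.90 and 0.775 CPM (adjusted p = 7.95e-05, edgeR adjusted p = 0.116). Every Dicer1-deleted library lay above every control. Negative regulators had 5 of 7 tested genes above 0, a median of 0.20 and none called. Trex1, a DNA exonuclease, is at 0 in all libraries. How its reads were counted is not given, so this 0 is not read as absence of its RNA. Samhd1, a nucleotide phosphohydrolase and the most abundant negative regulator, was at 700.1, 461 and 533 CPM against 469.7, 397, 445 and 473 CPM. Of 49 further interferon-stimulated genes outside the group 37 were above 0, with a median of 0.31. Only Ly6a (Sca-1), a surface protein, was called by DESeq2 among them (adjusted p = 0.0249, edgeR adjusted p = 0.340), at 712, 2784 and 322 CPM against 419, 239, 107 and 259 CPM. Ifitm1 was higher in every Dicer1-deleted library, at 117, 1395 and 74.3 CPM against 71.5, 26.2, 33.4 and 19.5 CPM (edgeR adjusted p = 0.239). DESeq2 gave no adjusted p for Ifitm1. Of the 49 genes 5 were higher in every Dicer1-deleted than in every control library (10.2%, against 3.86% of all genes). In that way 0 were lower (5.44% of all genes). In these 6 lists edgeR called 0 genes. At an unadjusted p under 0.05 it found 0 ligands and 0 receptors or kinases. It also found 1 transcription factor (11.1%), 1 sensor (7.14%), 1 negative regulator (14.3%) and 8 further interferon-stimulated genes (16.3%), against 8.01% of all genes.

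A list of genes named for a preference for interferon-gamma had a higher median fold change than the group, from the same libraries and controls. Genes in it can answer to type I interferons too, so the list does not tell the kinds of interferon apart. Of its 18 tested genes 17 were above 0 with a median of 0.83, and DESeq2 called 5, Cxcl11, Cxcl10, Tap1, Slamf8 and Cxcl9. Cxcl10, a chemokine for T cells, was at 483, 837 and 406 CPM in Dicer1-deleted libraries and at 231, 220.2, 187 and 217 CPM in controls (DESeq2 adjusted p = 0.00152, edgeR adjusted p = 0.162). The 8 listed guanylate-binding proteins, GTPases that break open pathogen vacuoles, were all above 0 with a median of 1.07, and DESeq2 called Gbp8 (adjusted p = 0.0308). The 9 IRG genes, of which Ifi47 is 1, were all above 0 with a median of 0.60, and DESeq2 called Gm12250 (adjusted p = 0.00164) and Tgtp1 (adjusted p = 0.0458). In these 3 lists edgeR called 0 genes. At an unadjusted p under 0.05 it found 9, 5 and 4 (50.0%, 62.5% and 44.4%), against 8.01% of all genes. DESeq2 called 2.19% of all the genes it adjusted. Genes higher in every Dicer1-deleted than in every control library numbered 5, 1 and 5 (27.8%, 12.5% and 55.6%), against 3.86% of all genes. These lists were drawn up with earlier results of these data known. Irf1 and Socs1 belong both to the interferon-gamma list and to the transcription factors and negative regulators. Without control replicate 3 the medians were 0.79, 0.93 and 0.52 for the 3 lists and 0.48 for the members. Without Dicer1-deleted replicate 1 they were 0.55, 0.66 and 0.37, against -0.0042 for the members. The difference between the lists was not tested.

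The libraries also ranked differently. Mean log2 CPM of the interferon-gamma-preferring genes was 7.82, 7.88 and 7.24 in Dicer1-deleted and 6.67, 6.49, 6.10 and 7.26 in control libraries. For IRG genes it was 7.56, 6.61 and 7.01 against 6.33, 6.40, 5.70 and 6.87. Control replicate 3 was thus the lowest library for both lists and the highest for the type I group. For guanylate-binding proteins it was 6.93, 5.54 and 6.24 against 5.21, 4.54, 4.70 and 5.98, lowest in control replicate 2 and next lowest in control replicate 3.

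**Figure D5:**
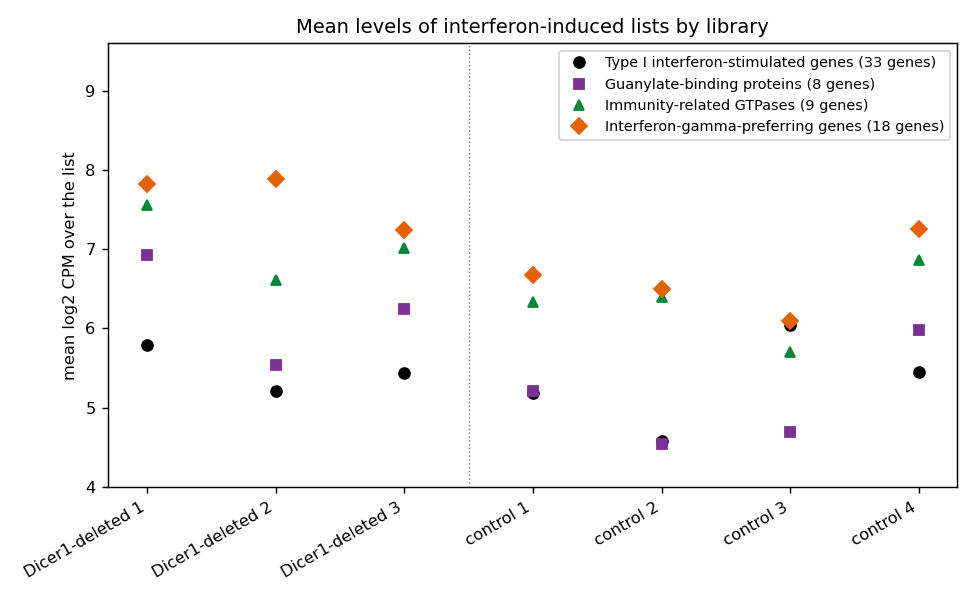
Mean log2 CPM per library over the 33 type I interferon-stimulated genes (black circles) and 3 other lists, with the Dicer1-deleted libraries left of the dotted line. In control replicate 3 the black circle is at its highest, 6.04, where the IRG triangle and the interferon-gamma diamond are at their lowest, 5.70 and 6.10.

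Sorted cells can hold other cell types, and in bulk RNA fewer cells of a type and less RNA per cell cannot be told apart. The markers of each type are given by their sum and by the mean of log2 CPM, the measure used for the members. Monocyte markers summed to 895 to 1354 CPM in Dicer1-deleted and 672 to 2148 CPM in control libraries, with the highest sum in control replicate 3, where Ccr2 alone gave 1391 CPM. Their mean log2 CPM was highest in Dicer1-deleted replicate 1 (6.003), next in control replicate 3 (5.78) and lowest in control replicate 2 (3.70). Of the 7 monocyte markers 4 had a positive fold change, and DESeq2 called Treml4, a receptor of nonclassical monocytes, at 214, 261 and 120.1 CPM against 17.9, 37.6, 10.7 and 17.8 CPM (adjusted p = 7.58e-09, edgeR adjusted p = 0.105).

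Conventional dendritic cell markers summed to 8.89 to 14.1 against 7.63 to 146 CPM, and both their sum and their mean log2 CPM (1.81) were highest in control replicate 3, with Cd209a at 109 CPM there. Of these 7 markers 2 were above 0, with Xcr1 called higher and Ccr7 called lower by DESeq2. Neutrophil markers summed to 224 to 292 against 134 to 601 CPM. The highest sum, in control replicate 3, held 537 CPM of Mmp9, while the mean log2 CPM of these markers was lowest in that library (3.77). Without Mmp9 the sums were 149, 210 and 132 CPM in Dicer1-deleted and 83.7, 82.1, 64.1 and 60.5 CPM in control libraries. They were then higher in every Dicer1-deleted library. Of the 5 neutrophil markers tested 4 were above 0, DESeq2 called Mmp8 higher, and the defining marker Ly6g was at or near 0.

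Plasmacytoid dendritic cells, the strongest producers of type I interferon, were followed by 9 markers, which summed to 74.2 to 109 CPM in Dicer1-deleted and 145 to 180.1 CPM in control libraries. Siglech, Ly6d, Klk1 and Pacsin1 were at or near 0 (Siglech at most 0.581 CPM) and did not pass the filter on low counts. Tcf4, a transcription factor of many cell types, gave most of the sum and was lower in every Dicer1-deleted library, at 82.8, 63.8 and 101 CPM against 138, 174, 143 and 159 CPM (DESeq2 adjusted p = 0.0339, edgeR adjusted p = 0.313). Of the 5 markers tested 2 were above 0. Their mean log2 CPM was 1.29, 1.83 and 0.653 in Dicer1-deleted and 1.55, 0.917, 1.03 and 1.66 in control libraries. By this measure the groups overlapped.

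Markers of T and NK cells, sources of interferon-gamma, summed to 11.3 to 25.1 CPM in Dicer1-deleted and 13.7 to 15.1 CPM in control libraries. Of the 13 tested 10 were above 0, with a median of 0.90, and their mean log2 CPM was -0.12 ± 0.65 (SD, n = 3) against -0.88 ± 0.29 (SD, n = 4). Nkg7, a protein of cytotoxic granules, was higher in every Dicer1-deleted library (DESeq2 adjusted p = 0.0429), and Cd2 was lower in every one (DESeq2 adjusted p = 9.53e-04). Ifng, interferon-gamma itself, was at a trace level of 1.29, 0.152 and 0.427 CPM against 0, 0.0449, 0 and 0.365 CPM. Its groups overlapped (DESeq2 adjusted p = 0.627). B cell markers summed to 144 to 187 against 40.8 to 77.5 CPM, higher in every Dicer1-deleted library, with the defining marker Pax5 at or near 0. Mean log2 CPM of the 4 tested was 4.15, 3.40 and 4.03 against 2.97, 3.14, 2.30 and 2.37. Tumor and stromal markers summed to 47.2 to 81.9 against 8.71 to 26.4 CPM. Mean log2 CPM of the 8 tested, Pecam1 among them, was 0.570, 0.0690 and 0.0955 against -0.595, -0.499, -0.550 and -0.417. It was higher in every Dicer1-deleted library. In the Dicer1-deleted libraries most of the sum was Pecam1, an endothelial and leukocyte adhesion protein (DESeq2 adjusted p = 3.13e-05). Pecam1 was at 69.6, 39.8 and 36.3 CPM there and at 6.54, 3.23, 11.1 and 11.9 CPM in controls. Without Pecam1 the sums overlapped. The part of these cells in the values of the members and of the other lists was not tested.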

How the data were processed

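RNA was sequenced as read pairs from 7 libraries of sorted F4/80+ cells, 3 Dicer1-deleted and 4 control. Per the labels' protocols, cDNA was amplified with the SMARTer ultra low kit and libraries were made with Nextera XT, which keep no strand. Bowtie2 is named in the submitters' processing notes. Its version, the build and the program that counted reads are not given in these sources. The deposited files give counts of uniquely placed reads per gene, in which the authors counted both mates of a pair, since all counts are even. Further columns are, per the file headers, expected counts (unique reads plus shares of multiply placed ones), a fraction of multiply placed reads and RPKM. The authors' RPKM was not used.

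A gene not listed in a library was given 0 there (31124 values). Of the Ensembl IDs 21813 were found in GENCODE M21 and 2271 were not. Unique counts were analysed in edgeR 4.0.16 (R 4.3.3) with filterByExpr, TMM scaling and the quasi-likelihood F test, with Benjamini-Hochberg adjustment over 16226 genes at 0.05. Mean log2 CPM used a prior count of 2. The biological coefficient of variation was 45.1%. Without molecular identifiers, depth covers counting error only. Promoter windows came from RefSeq (GRCm38.p6). The scripts were tested on simulated data. Tables were made with Python 3.11.15, numpy 2.4.6 and pandas 2.3.3.

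Alternatives were DESeq2 1.42.0, its size factors in edgeR, no TMM factors, no filter on low counts, at least 10 CPM in 3 libraries, a covariate for the L code, expected counts rounded to whole numbers, limma-voom (3.58.1) with quality weights, leaving out each library and, added after seeing the data, read pairs. The members and lists were chosen with earlier results of these data known. Values per library are printed for members called or without overlap, and in each role group for the member with the highest mean CPM and the one with the largest fold change. Of each further list up to 4 genes called by edgeR or DESeq2, or else its most abundant gene, are named with the values their group needs. Single cell type markers, Trex1 and Ifitm1 were named after their values were seen.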

Additional observations from a re-analysis of the deposited data

Results flagged for a closer look

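Zbp1 was the one gene, of the 33 members and Dicer1, with a control library far from the other controls. Control replicate 1 was at 50.7 CPM and the others at 39.1, 40.1 and 40.8 CPM. The gap to the nearest control was 0.861 of the control range, above Dixon's critical value for 4 libraries. In such a check chance marks about 1 in 20 groups, and 34 groups were examined. The groups overlap for Zbp1 because of this library, at 50.7 CPM, and Dicer1-deleted replicate 3, at 47.3 CPM.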

How the results depend on the processing

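No member passed an adjusted p of 0.05 in any of the 17 fits, and the lowest adjusted p of a member was 0.0961 (Zbp1, DESeq2). The 16 alternatives gave 525 log2 fold changes of members, of which 464 kept the sign of the reported value and 61, in 18 members, did not. No reversed member was past the threshold. With the L code as covariate the reversed values were Ifit2 0.56, Ifit3b 0.14, Mx2 0.39, Rsad2 0.29, Usp18 0.068, Ddx58 0.47, Cmpk2 0.62, Ifi27l2a -0.040, Slfn5 0.54, Slfn8 0.46 and Siglec1 -0.031. With limma-voom and quality weights they were Ifit2 0.49, Isg20 -0.17, Mx2 0.12, Rsad2 0.10, Ddx58 0.45, Cmpk2 0.32, Ifi27l2a -0.21, Slfn5 0.29 and Slfn8 0.36. Ddx58 was at 0.0031 in DESeq2 and 0.0036 with its size factors in edgeR, and Mx1 at -0.0097 without TMM factors. Over the fits that leave out 1 library, the reversed members ranged as follows on the log2 scale: Mx1 -0.23 to 0.70, Ifi44 -0.018 to 1.003, Ifih1 -0.0042 to 0.62, Xaf1 -0.62 to 0.083, Siglec1 -0.18 to 0.31, Ifit2 -0.69 to 0.10, Isg20 -0.34 to 0.55, Ddx58 -0.31 to 0.40, Ifi27l2a -0.51 to 0.50, Slfn5 -0.56 to 0.38, Slfn8 -0.30 to 0.23, Oas2 -0.070 to 0.63, Bst2 -0.49 to 0.15, Cmpk2 -0.30 to 0.56, Ifit3b -0.78 to 0.020, Mx2 -0.43 to 0.26, Rsad2 -0.57 to 0.049 and Usp18 -0.54 to 0.045. Members at an unadjusted p under 0.05 numbered 1 without TMM factors (7.48% of all genes), 5 with the L code as covariate (6.71%), 6 with quality weights (14.2%) and 1 to 4 when 1 library was left out (5.73% to 9.42%). Members without overlap in either direction numbered 1 to 6 when 1 library was left out, against 11.7% to 21.2% of all genes: 6 without Dicer1-deleted replicate 2 (21.2%), 3 without Dicer1-deleted replicate 3 (15.5%) or control replicate 1 (11.7%), and 2 without control replicate 2 (13.5%) or 3 (12.9%). The mean log2 CPM difference ranged from -0.06 (without control replicate 2) to 0.41 (without control replicate 3) when 1 library was left out. The causes were not tested.

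Dicer1 passed in DESeq2, with a log2 fold change of -1.14. Over all genes 4 passed in edgeR, 397 in DESeq2, 42 without the filter, 80 with quality weights, 1 with the 10 CPM filter, 0 with the L code as covariate and 0 to 3 when 1 library was left out. No paired analysis was possible because the labels give no replicate numbers that groups share, and the numbers used here follow accession order and name libraries only.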
